A study of Homo sapiens with 10 samples.

Results

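A small group of genes was silent or nearly so in 2 libraries of MCF10A cells, a non-transformed breast epithelial line. The same genes were expressed in 2 libraries of this line after it received the G12V form of the HRas oncogene. Other libraries of MCF10A cells, described below, held more reads of some of these genes. A gene was counted as switched on when it had at most 3 raw reads in each of the 2 MCF10A libraries and at least 50 in each of the 2 G12V libraries. Of the 26256 genes listed, 14 met both limits (0.0533%), and 3 of these, IL6, ZNF804A and C1QTNF1-AS1, were left out by symbol because they belong to gene groups not described here. The remaining 11 genes were EPB41L3, C6orf223, SHANK1, TNFAIP6, GLRA3, PTGIR, PDE3B, PLA2G3, CCL2, HCLS1 and TBX18. The genes were thus chosen by their raw counts in these 4 libraries, and their levels in MCF10A and G12V cells are given as a description and carry no test.

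The MCF10A cells were labelled parental and the G12V cells H-RAS Gv12. The G12V cells were made by lentiviral transduction together with a GFP vector and by hygromycin selection, so they are a selected line, and the sources used here do not say whether it is 1 clone. A separate experiment holds MCF10A cells without the oncogene, given 10 µM Nutlin-3a, a drug that releases p53 from MDM2, or its solvent DMSO for 4 h, with 3 libraries each. Total counts per library ranged from 21538593 to 23683975 in the first experiment and from 15453226 to 17378734 in the second. HRAS itself rose on the log2 scale by 3.05 (SE 0.23, adjusted p = 0.00165 by edgeR's quasi-likelihood test), to 573 ± 82.0 CPM (counts scaled to the same library total, SD, n = 2) in the G12V libraries from 69.3 ± 4.77 CPM (SD, n = 2), with reads of the introduced and the endogenous copy counted together. Of 8 mammary epithelial markers 6 were lower in G12V cells, beside 5.95% of all genes tested. Among them KRT14 had 8848 and 9593 counts in MCF10A and 2 and 3 in G12V cells, with 2225, 774 and 1713 in the DMSO libraries. KRT5 fell from 81722 and 106150 counts to 21893 and 27358. KRT18 and KRT8 did not pass, with 7000 and 7937 against 4869 and 4483 counts and 4808 and 3904 against 4924 and 5217. In libraries made from whole cultures, fewer cells of a type and less RNA per cell cannot be told apart.

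A gene without transcripts in one cell type is usually held in closed or methylated chromatin, or lacks the factors that would drive it, and RAS signalling acts on genes through kinases that end at transcription factors such as AP-1 and ETS proteins. The 11 genes have different tasks and different usual tissues. SHANK1, the scaffold of excitatory synapses, and GLRA3, a ligand-binding subunit of the glycine-gated chloride channel, are known from neurons. HCLS1, an actin-binding relative of cortactin, is known from blood cells. CCL2, the chemokine that attracts monocytes, TNFAIP6, a secreted protein that binds hyaluronan, PTGIR, the prostacyclin receptor, and PLA2G3, a secreted phospholipase A2, belong to inflammation and lipid signalling. PDE3B hydrolyses cyclic AMP and is known from fat and liver. TBX18 is a T-box transcription factor of the embryonic heart, ureter and somites. EPB41L3 is a membrane-skeleton protein of the protein 4.1 family, found in brain and other tissues and known as a growth suppressor. C6orf223 is an uncharacterized locus that RefSeq now lists as the non-coding LINC03040.

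Silence was common and switching on was rare. In MCF10A cells 10142 genes (38.6%) had at most 3 counts in each library, and of these 9478 (93.5%) had at most 3 counts in each G12V library as well. At least 10 counts in each G12V library were reached by 82 of the silent genes, at least 20 by 38, at least 50 by 14 and at least 100 by 10. Both G12V counts lay above both MCF10A counts in 29.7% of the 14376 genes that had enough counts to be tested, and in all 11 switched-on genes by their choice.

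**Figure D1:**
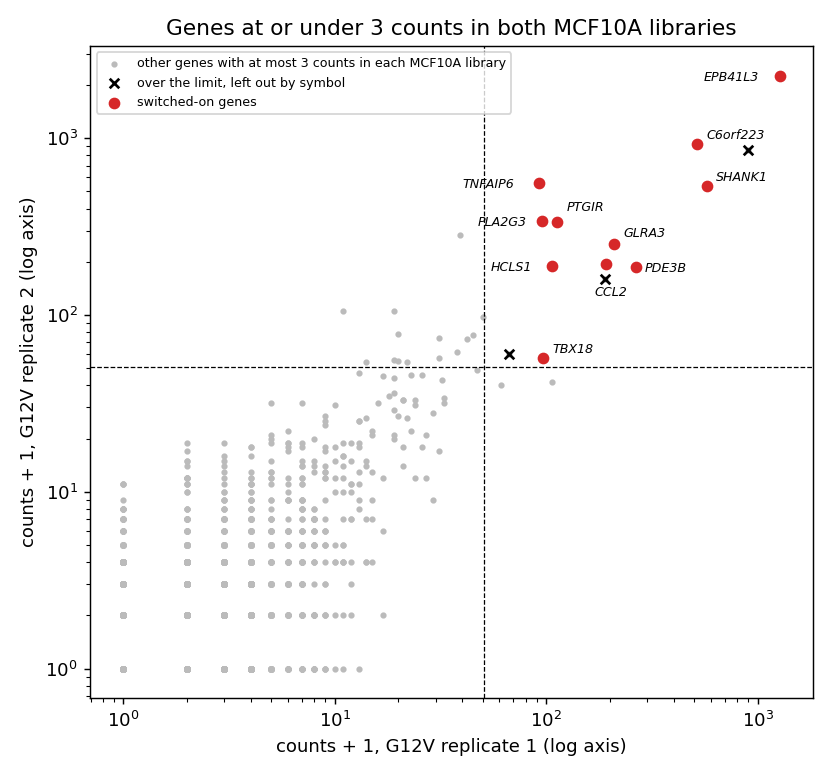
Each point is 1 of the 10142 genes with at most 3 counts in each MCF10A library, with its counts plus 1 in G12V replicate 1 on the horizontal axis and in G12V replicate 2 on the vertical axis, both on log scales, and dashed lines at the limit of 50 counts. Most genes sit in the lower left corner, the 11 switched-on genes stand at the upper right, and TBX18 lies closest to the limit.

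Upstream sequence was read from RefSeq promoter windows on GRCh38.p14, which cover 250 bases before to 50 after a start site. Windows were found for 6 of the 11 genes: EPB41L3, C6orf223 (as LINC03040), GLRA3, HCLS1, TBX18 and TNFAIP6. SHANK1, PTGIR, PDE3B, PLA2G3 and CCL2 had no entry. EPB41L3 had 4 windows, so 9 windows were searched on both strands for 5 motifs: TGANTCA of AP-1, CCGGAAGT of ETS proteins, the kappa B motif, TGACGTCA of the cyclic AMP response element and TATAAA of the TATA box. The AP-1 motif was found in 2 of the 9 windows (22.2%), once in HCLS1 and once in TNFAIP6, beside 7.72% of all 34943 windows and 8.21% of the windows of genes silent in MCF10A. The other 4 motifs were in none of the 9 windows. A match is a run of letters and not a measured binding site.

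The 150 bases before the first listed start are shown for 4 genes, the first 2 because they hold the AP-1 motif, in capitals, and the other 2 because they are rich in CpG. The stretches are chr3:121660904-121661053 on the minus strand, chr2:151357442-151357591 on the plus strand, chr18:5628992-5629141 on the minus strand and chr4:174829248-174829397 on the minus strand, in the order of the lines.
HCLS1: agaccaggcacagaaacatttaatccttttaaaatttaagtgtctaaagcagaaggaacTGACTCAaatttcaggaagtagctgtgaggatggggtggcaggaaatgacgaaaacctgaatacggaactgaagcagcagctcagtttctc
TNFAIP6: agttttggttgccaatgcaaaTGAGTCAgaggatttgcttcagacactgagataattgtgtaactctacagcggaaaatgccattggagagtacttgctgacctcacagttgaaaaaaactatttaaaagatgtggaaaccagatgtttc
EPB41L3: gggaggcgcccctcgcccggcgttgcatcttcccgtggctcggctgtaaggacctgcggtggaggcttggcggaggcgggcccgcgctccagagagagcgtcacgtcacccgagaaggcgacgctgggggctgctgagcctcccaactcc
GLRA3: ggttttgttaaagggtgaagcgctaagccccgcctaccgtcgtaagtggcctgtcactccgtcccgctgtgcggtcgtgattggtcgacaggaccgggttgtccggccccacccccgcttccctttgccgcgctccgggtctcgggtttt

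The motif begins 91 bases before the start in HCLS1 and 129 bases before it in TNFAIP6. The windows of these 2 genes were poor in CpG, with an observed over expected ratio of 0.39 in HCLS1 and 0.19 in TNFAIP6. The first windows of EPB41L3, GLRA3 and TBX18 had ratios of 0.91, 0.90 and 0.80 and met the usual definition of CpG-rich sequence, a GC content over 50% and a ratio over 0.6. That is 3 of the 6 first windows, and 4 of the 9 windows (44.4%) when every start is counted. With every start counted, the share was 46.6% of all windows and 27.4% of the windows of genes silent in MCF10A. It was 71.1% of the windows of genes expressed highly enough to be tested. The switched-on genes therefore included promoters of both classes.

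EPB41L3 was the most abundant of the group. It lies on chromosome 18 from 5392380 to 5628990 on the minus strand (hg19, as for all positions of genes here). It had 1 and 0 counts in the MCF10A libraries and 1270 and 2260 in the G12V libraries, which is 77.6 ± 32.9 CPM (SD, n = 2) in G12V cells. Both G12V libraries were far above both MCF10A libraries, and 78.2% of the tested genes were expressed at a lower CPM. The ratio of the pooled CPM was 3445, and with a single count on the MCF10A side the 95% counting interval ran from 618 to 136111. Counting intervals and limits here cover counting error only and not the spread between libraries. These reads carry no molecular identifiers, so duplicate reads were not told apart and the intervals may be too narrow.

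The 2 genes known from neurons stood at 0 in MCF10A. SHANK1, on chromosome 19 from 51165084 to 51220195, had 0 and 0 counts in MCF10A and 577 and 533 in G12V cells, or 24.2 ± 0.635 CPM (SD, n = 2). Against 3 counts over both MCF10A libraries this is at least 361-fold higher, and the G12V libraries were nearly equal. GLRA3, on chromosome 4 from 175563162 to 175750466, had 0 and 0 counts in MCF10A and 209 and 250 in G12V cells, or 10.0 ± 1.57 CPM (SD, n = 2), at least 149-fold higher. The level of SHANK1 was close to the median of all tested genes in G12V cells, which was 24.1 CPM.

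The genes of inflammation and lipid signalling differed in how well the G12V libraries agreed. CCL2, on chromosome 17 from 32582296 to 32584220, had 1 and 0 counts in MCF10A and 190 and 194 in G12V cells, or 8.39 ± 0.374 CPM (SD, n = 2). TNFAIP6, on chromosome 2 from 152214106 to 152236562, had 1 and 1 counts in MCF10A but 91 and 557 in G12V cells, a 6.39-fold difference in CPM between the G12V libraries. PTGIR, on chromosome 19 from 47123725 to 47128354, had 1 and 0 counts in MCF10A and 112 and 337 in G12V cells, a 3.14-fold difference between them. PLA2G3, on chromosome 22 from 31530793 to 31536593, had 0 and 0 counts in MCF10A and 95 and 339 in G12V cells, at least 141-fold higher in the pooled libraries and 3.72-fold apart between the G12V libraries. The SD between the G12V libraries was therefore close to the mean for TNFAIP6, PTGIR and PLA2G3, at 14.4 ± 14.8, 9.91 ± 7.24 and 9.59 ± 7.82 CPM (SD, n = 2).

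HCLS1, on chromosome 3 from 121350245 to 121379795, had 1 and 1 counts in MCF10A and 105 and 189 in G12V cells, a pooled ratio of 143 with a 95% counting interval of 39.4 to 1190. Among leukocyte markers PTPRC and SPI1 were at 0 in both G12V libraries. CD14 had 396 and 839 counts in MCF10A and 508 and 888 in G12V cells and LYZ 36 and 37 against 37 and 33, and neither passed the test.

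PDE3B, on chromosome 11 from 14665269 to 14893604, had 1 and 2 counts in MCF10A and 265 and 187 in G12V cells, a pooled ratio of 147. C6orf223, on chromosome 6 from 43968337 to 43973694, had 3 and 0 counts in MCF10A and 518 and 924 in G12V cells, or 31.7 ± 13.5 CPM (SD, n = 2), and was second in abundance. TBX18, on chromosome 6 from 85442216 to 85473954, was the weakest, with 2 and 0 counts in MCF10A and 96 and 56 in G12V cells, or 3.30 ± 1.14 CPM (SD, n = 2). Its pooled ratio was 74.2 (95% counting interval 20.2 to 618), and 23.0% of the tested genes had a lower CPM than TBX18.

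**Figure D2:**
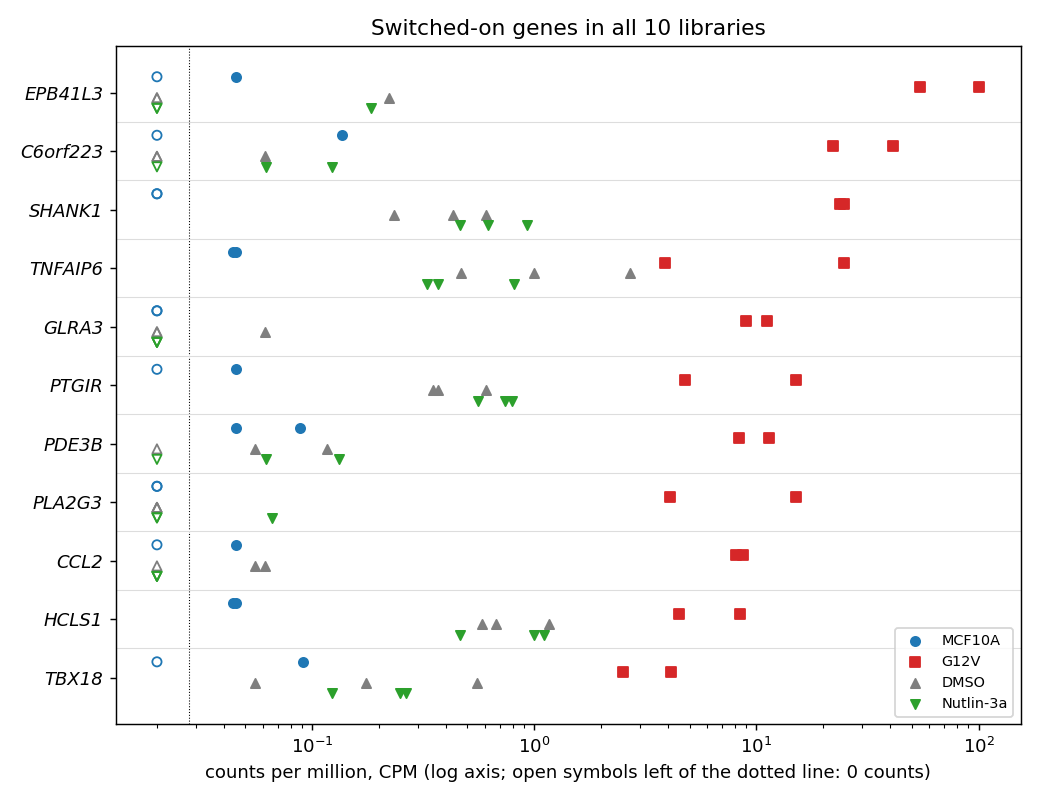
CPM of each switched-on gene on a log axis in all 10 libraries, 1 symbol per library, with open symbols left of the dotted line for libraries with 0 counts. The G12V libraries lie at 2.50 CPM or more for each gene, and the libraries of the Nutlin-3a experiment come closest to them for TNFAIP6, where the highest DMSO library had 2.70 CPM and the lower G12V library 3.89 CPM.

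Lengths of transcripts change the order of the genes. Scaled to the length of the canonical GENCODE transcript (RPKM, mean level in G12V cells), EPB41L3 stayed first at 17.4, and the short transcripts of CCL2 and TNFAIP6 followed at 11.3 and 10.1. C6orf223 had 6.03 RPKM, PTGIR 4.77, PLA2G3 3.69, HCLS1 3.24 and SHANK1 2.51. PDE3B, GLRA3 and TBX18 were lowest, at 1.64, 1.15 and 0.51 RPKM. TNFAIP6 ranged from 2.74 to 17.5 RPKM between the G12V libraries, a range that holds the means of EPB41L3, CCL2 and C6orf223.

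The G12V libraries differed from each other more in these genes than in most. The CPM of the libraries was over 1.5-fold apart for 7 of the 11 genes (63.6%), beside 23.0% of the 7925 genes of the same range of mean count, and the median fold between the libraries was 1.86 against 1.23. The 7925 genes span the whole range and were not matched in level to the switched-on genes, and the part of counting error in this difference was not tested. Replicate 2 was higher for 8 genes (72.7%), beside 56.1% of the 7925 genes. Replicate 1 was higher for SHANK1, PDE3B and TBX18, whose fold of replicate 2 over replicate 1 was 0.96, 0.74 and 0.61. The lowest of the genes by G12V count were TBX18, TNFAIP6 and PLA2G3. Just under the limit of 50 stood ALDH1A1, a retinal dehydrogenase, with 49 and 96 counts, ADAMTS16, a secreted protease, with 46 and 48, and CTNND2, a catenin of neurons, with 44 and 76, all 3 at 0 in both MCF10A libraries. Just over the limit of 3 in MCF10A stood the receptor kinase EPHA3, with 4 and 0 counts in MCF10A and 276 and 276 in G12V cells, the glycosyltransferase GALNT9, with 2 and 4 against 184 and 650, and LOC100130238, which lies within the span of GALNT9, with 1 and 4 against 156 and 173.

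The libraries of the Nutlin-3a experiment were not used to choose the genes, and their DMSO libraries give a second reading of MCF10A cells without the oncogene. All 11 genes were found in that table, which was counted on another annotation and is set beside the first without a test. At most 3 counts in each of the 3 DMSO libraries were found for 5 of the 11 genes (45.5%): C6orf223, GLRA3, PDE3B, CCL2 and PLA2G3. Among the 7864 genes that are silent in MCF10A and listed in both tables this share was 93.9%, and among all 22805 matched genes it was 39.4%. The share fell with the level in G12V cells. It was 95.9% for the 7335 silent genes that stayed at or under 3 counts in each G12V library, 71.1% for 454 genes with over 3 counts in some G12V library but under 10 in the lower one, and 42.6% for 61 genes with 10 to 49 in the lower one. The share of the switched-on genes was thus near that of the silent genes that rose less.

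Of the 5 genes silent in both sets of libraries, PLA2G3 had 0 counts in every DMSO library and a single count in 1 Nutlin-3a library. GLRA3 had 0, 1 and 0 counts with DMSO, CCL2 1, 1 and 0, C6orf223 0, 1 and 0, and PDE3B 1, 0 and 2. With Nutlin-3a these 5 genes had between 0 and 2 counts per library. EPB41L3 belonged with them but for 1 library, with 4, 0 and 0 counts with DMSO and 3, 0 and 0 with Nutlin-3a.

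The other genes were weakly expressed in the DMSO libraries. TNFAIP6 had 18, 44 and 8 counts, HCLS1 21, 11 and 10, SHANK1 11, 7 and 4, and PTGIR 11, 6 and 6. Each of these had over 3 counts in all 6 libraries of that experiment. Of the 7864 genes silent in MCF10A and listed in both tables, 140 (1.78%) had over 3 counts in every DMSO library. Most of the 7864, namely 7335, had at most 3 counts in each G12V library. Of the 20 matched silent genes that rose less, described under other observations, 8 had over 3 counts in every DMSO library. TBX18 had 1, 9 and 3 counts. The pooled DMSO level was 1.36 CPM for TNFAIP6 (95% counting interval 1.06 to 1.72), 0.82 CPM for HCLS1 (0.588 to 1.10), 0.45 CPM for PTGIR (0.283 to 0.670), 0.43 CPM for SHANK1 (0.268 to 0.647) and 0.25 CPM for TBX18 (0.134 to 0.432). For TNFAIP6, HCLS1, PTGIR and SHANK1 these intervals lie above the MCF10A values, whereas the intervals of TBX18 overlap. The MCF10A values reached 0.162 CPM at the upper bound for TNFAIP6 and HCLS1, 0.125 CPM for PTGIR and a limit of 0.0671 CPM for SHANK1. The share of all silent genes with a DMSO interval above that of MCF10A is not given here.

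**Figure D3:**
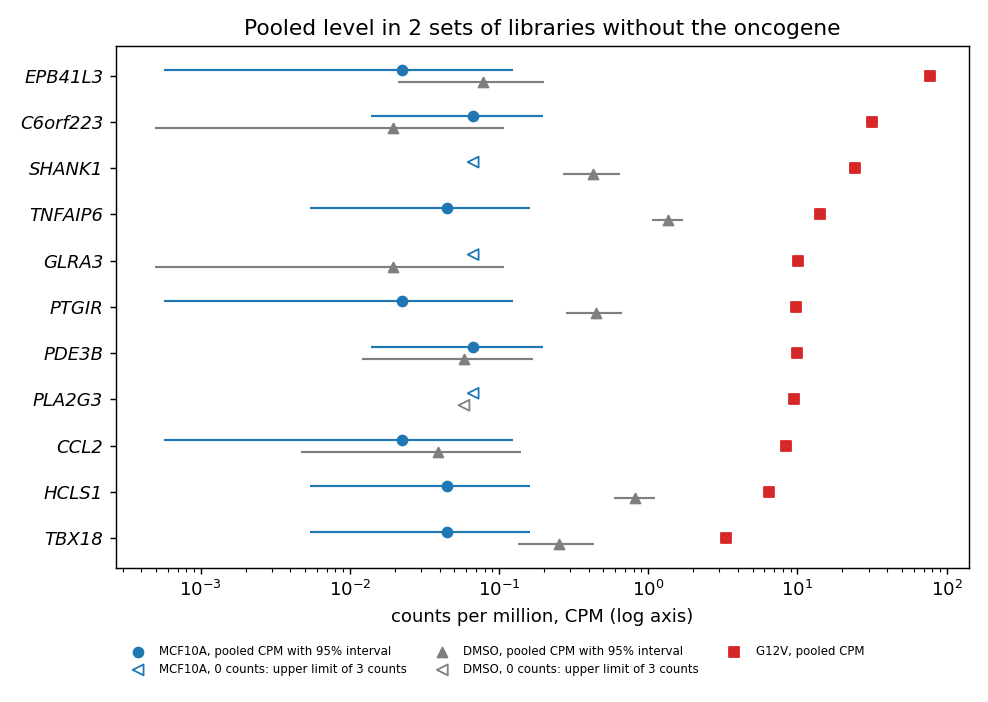
Pooled CPM on a log axis of each switched-on gene in the 2 MCF10A libraries, the 3 DMSO libraries and the 2 G12V libraries, with bars for 95% counting intervals and open triangles for the limit that 0 counts allow. The DMSO interval lies to the right of the MCF10A interval or limit for TNFAIP6, HCLS1, PTGIR and SHANK1 and overlaps it for the other genes.

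The distance between G12V cells and the DMSO libraries therefore varied. The lower G12V library stood above the highest DMSO library by 1.44-fold for TNFAIP6, 3.86-fold for HCLS1, 4.52-fold for TBX18, 7.87-fold for PTGIR and 39.1-fold for SHANK1 in CPM. MCF10A cells of the 2 experiments also differed in other genes, in both directions. IL1B, the cytokine interleukin 1 beta, had 228 and 75 counts in MCF10A but 4708, 10722 and 11877 with DMSO, and CXCL1, a neutrophil chemokine, had 819 and 456 against 1658, 5991 and 2248. CD14, a monocyte receptor, had 396 and 839 against 47, 73 and 106, and the keratin KRT17 had 40359 and 52152 against 2788, 2023 and 7606. The part of these differences in the DMSO counts of the switched-on genes was not tested.

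After Nutlin-3a for 4 h no switched-on gene was called. Only TNFAIP6, PTGIR and HCLS1 had enough counts to be tested, and 0 of these 3 passed an adjusted p under 0.05 with a log2 fold change beyond 0.5, beside 0.17% of the 13529 genes tested by edgeR. The lowest unadjusted p of the 3 in this fit was 0.0629, for TNFAIP6, and none was called by DESeq2, which called 0.65% of all genes. TNFAIP6 had 6, 13 and 5 counts with Nutlin-3a and was lower than with DMSO in 3 of 3 pairs of the same number, and its log2 fold change was -1.44 (SE 0.67) at an adjusted p = 1.00 by edgeR. With the replicate number as a block, which the data pair, the log2 fold change was -1.43 (SE 0.34), with an unadjusted p = 0.00133 and an adjusted p = 0.0636, the lowest of a range of 0.0636 to 1.00 over 11 settings, in a fit that called 1.22% of all genes, and without the filter the unadjusted p = 0.00103. Without DMSO replicate 2 the log2 fold change was -0.54. PTGIR, with 12, 9 and 12 counts, was higher in CPM in 3 of 3 pairs and had a log2 fold change of 0.63 (SE 0.38), and HCLS1, with 18, 16 and 7 counts, one of 0.08 (SE 0.43). SHANK1, not tested, had 15, 10 and 7 counts with Nutlin-3a and was also higher in CPM in 3 of 3 pairs, and TBX18 had 2, 4 and 4. The share of all genes with 3 of 3 pairs in the same direction is not given here, so these directions are a description.

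The nearest gene on each side of every switched-on gene was read next, to see how far the rise reached along the chromosome. A gene that overlaps a switched-on gene took the place of the neighbour on that side. Among the 22 neighbours 11 had enough counts to be tested, and 2 of these (18.2%) were higher in G12V cells, beside 5.01% of all genes tested, and 0 were lower, beside 5.95%. With an unadjusted p under 0.05 by edgeR 2 neighbours were lower, HPGD and NT5E, and both were called lower by DESeq2 and by edgeR with the replicate number as a block. All 11 switched-on genes were themselves called higher, as their choice made likely. The median log2 fold change of the tested neighbours was 0.25, that of all genes -0.001. A further 9 neighbours had at most 3 counts in each of the 4 libraries.

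The 2 neighbours that rose were LOC101929705 and CLEC11A. LOC101929705, a non-coding RNA on the opposite strand, overlaps the whole of C6orf223 and had 5 and 1 counts in MCF10A and 51 and 40 in G12V cells (log2 fold change 3.83, SE 0.65, adjusted p = 0.0186 by edgeR). No strand setting is given for the counting, and without strand the reads of this pair cannot be told apart where they overlap. CLEC11A, a secreted growth factor for blood and bone cells, begins 6.41 kb from SHANK1 and had 13 and 23 counts in MCF10A and 87 and 104 in G12V cells (log2 fold change 2.37, SE 0.43, adjusted p = 0.0221). C19orf81, on the other side of SHANK1 at 2.52 kb, had 0 and 0 counts in MCF10A and 6 and 17 in G12V cells, too few for the test. Without MCF10A replicate 1 neither neighbour was called, and 0 genes of the whole table were called by edgeR, where 2830 had an unadjusted p under 0.05.

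The other tested neighbours did not pass in the edgeR fit without the block. PSMA1, a proteasome subunit whose span ends 88 bases from that of PDE3B, had 3355 and 3276 counts in MCF10A and 4418 and 4492 in G12V cells (log2 fold change 0.39, SE 0.18, adjusted p = 0.235). INPP5J, a phosphoinositide phosphatase 109 bases from PLA2G3, had 25 and 19 against 22 and 38 counts. HPGD, the prostaglandin-degrading dehydrogenase beside GLRA3, had 94 and 489 counts in MCF10A and 24 and 52 in G12V cells (log2 fold change -2.95, SE 0.84, adjusted p = 0.0811). NT5E, the ectonucleotidase CD73, lies 685 kb from TBX18 and had 6693 and 5195 against 3633 and 3171 counts (adjusted p = 0.0631). CCL7, the chemokine gene 13014 bases from CCL2, had 0 counts in all 10 libraries. Within 100 kb of the switched-on genes 22 genes were tested, with 2 higher and 1 lower, and within 500 kb 92 were tested, with 5 higher (5.43%) and 9 lower (9.78%).

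**Figure D4:**
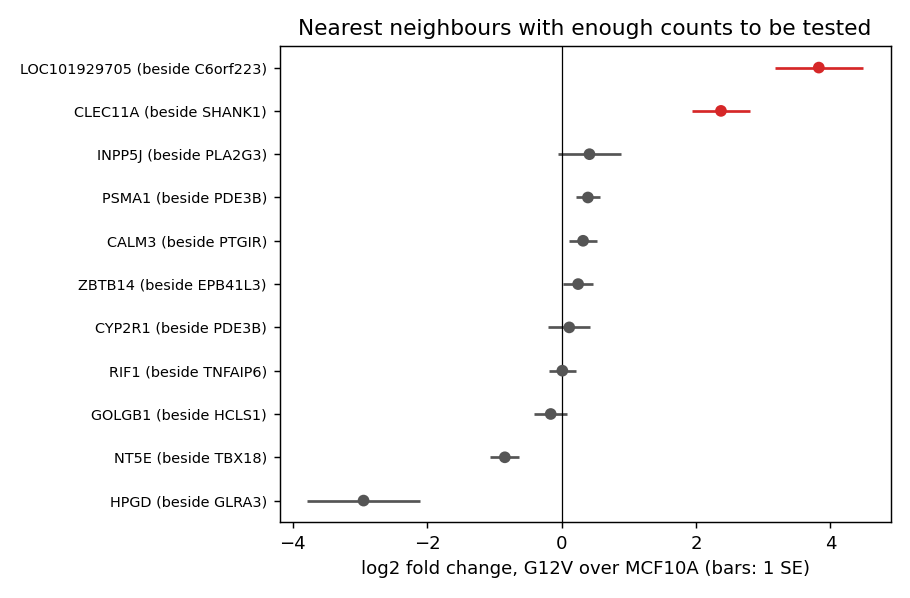
Log2 fold change of G12V over MCF10A cells for the 11 nearest neighbours that could be tested, with bars of 1 SE and the 2 called genes in red. LOC101929705 and CLEC11A stand at 3.83 and 2.37, and the other 9 lie between -2.95 and 0.41.

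The relatives of the switched-on genes were grouped after those genes were known. Of 51 tested relatives 8 (15.7%) were higher and 3 (5.88%) lower, beside 5.01% and 5.95% of all genes tested, and their median log2 fold change was 0.11 beside -0.001. Counts below leave out the switched-on genes themselves, whose rise was fixed by their choice. Of the 6 relatives in the protein 4.1 family, all tested, EPB41 and EPB41L2 were higher, with log2 fold changes of 1.29 (SE 0.23) and 1.48 (SE 0.23), and EPB41 started from 633 and 744 counts. SHANK3 had 308 and 282 counts in MCF10A and 435 and 425 in G12V cells and was not called, and SHANK2 had at most 4 counts in any of these libraries. The beta subunit of the glycine receptor, GLRB, with which the alpha subunits assemble, had 191 and 164 counts in MCF10A and 357 and 516 in G12V cells (log2 fold change 1.27, SE 0.30, adjusted p = 0.0514), and the other alpha subunits GLRA1, GLRA2 and GLRA4 had at most 3 counts.

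Of 14 phosphodiesterase relatives tested 2 were higher, PDE4B and PDE4D, which like PDE3B act on cyclic AMP. Other tested enzymes that act on it did not pass. Their log2 fold changes were 2.44 for PDE2A (5 and 7 against 14 and 53 counts), 0.86 for PDE4A, 0.48 for PDE4C and 0.21 for PDE8A. On the negative side stood -0.17 for PDE11A, -0.93 for PDE8B, -1.04 for PDE7A and -1.79 for PDE7B. PDE4B had 15 and 19 counts in MCF10A and 394 and 449 in G12V cells (log2 fold change 4.59, SE 0.33), and PDE4D a log2 fold change of 0.84 (SE 0.17). PDE3A, the closest relative of PDE3B, had 4 and 3 counts in MCF10A and 2 and 2 in G12V cells.

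Of the CCL2 gene cluster, CCL1, CCL7, CCL8, CCL11 and CCL13 had 0 counts in MCF10A, G12V and DMSO libraries, and its receptor gene CCR2 had 0 and 3 counts in G12V cells. Of 12 tested relatives of PTGIR among prostanoid receptors and enzymes 1 was higher and 2 were lower. The thromboxane synthase TBXAS1 was higher, with 27 and 35 counts in MCF10A and 175 and 184 in G12V cells. The prostaglandin E synthase PTGES and the cyclooxygenase PTGS1 were lower, with log2 fold changes of -2.25 (SE 0.26) and -3.92 (SE 0.47). The prostacyclin synthase PTGIS, which makes the ligand of PTGIR, had 40 and 37 counts in MCF10A and 33 and 25 in G12V cells and was not called.

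Of 9 tested hyaluronan genes besides TNFAIP6, 3 were higher: the hyaluronidase HYAL1, the pentraxin PTX3, which binds TNFAIP6 protein, and the proteoglycan VCAN. PTX3 had 48 and 22 counts in MCF10A and 1057 and 721 in G12V cells (log2 fold change 4.62, SE 0.45). Of 4 tested T-box genes besides TBX18, EOMES was lower (log2 fold change -4.22, SE 0.65). Among the other secreted phospholipases A2, PLA2G12A was tested and had 894 and 867 against 767 and 777 counts. CTTN, the cortactin gene, had 7256 and 6447 counts in MCF10A and 6407 and 4682 in G12V cells and was not called.

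**Figure D5:**
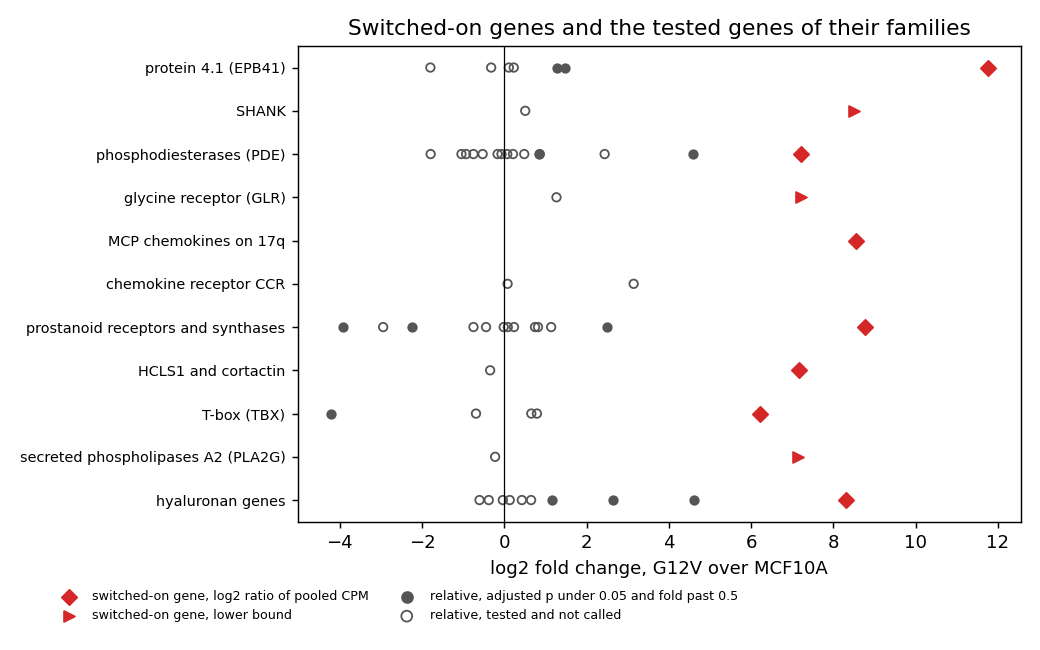
Change between MCF10A and G12V cells on a log2 scale for the tested genes of each family, with circles for the fitted log2 fold change of relatives (filled where called) and red symbols for the log2 ratio of pooled CPM of the switched-on genes, arrowheads being lower bounds. In each family that holds a switched-on gene, that gene lies farther to the right than every tested relative, as its choice makes likely, and the largest rises among relatives are those of PTX3 and PDE4B.

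Wider lists were read in the same way, without the switched-on genes and beside the 5.01% higher, the 5.95% lower and the median log2 fold change of -0.001 over all genes tested. These lists were chosen with earlier results of these data known, so their shares describe the lists and carry no test. Of 30 synaptic and neuronal genes 14 had at most 3 counts in each of the 4 libraries. Besides SHANK1, 12 were tested, of which 3 (25%) were higher and 0 lower, with a median of 0.82. The higher ones were the membrane-fusion gene SNAP25 (1 and 0 counts in MCF10A, 30 and 16 in G12V cells), the adhesion molecule NCAM1 (5 and 2 against 106 and 127, and 54, 44 and 48 with DMSO) and the splicing factor RBFOX3 (4 and 2 against 80 and 131). Of 8 neuronal markers 3 were tested, of which 2, again SNAP25 and RBFOX3, were higher and 0 lower. STMN2 and ELAVL4 were at 0 in all 4 libraries, and the 8 summed to 37 and 25 counts in MCF10A against 131 and 178 in G12V cells.

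Of 30 cytokines, chemokines and receptors 19 were tested besides CCL2, 8 (42.1%) higher and 2 (10.5%) lower, with a median log2 fold change of 1.59. These 8 had at least 54 counts in each MCF10A library. CSF3, the granulocyte growth factor, was 1 of them, with 410 and 263 counts in MCF10A and 13341 and 9904 in G12V cells. Several were also high in the DMSO libraries, with CSF3 at 3695, 9420 and 2940 counts and CCL20, a chemokine, at 706, 2889 and 864, where CCL2 was at 1, 1 and 0.

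Of 35 mesenchymal and developmental transcription factors 16 were tested besides TBX18, 3 (18.8%) higher and 0 lower, with a median log2 fold change of 0.27: FOXF1 (0 and 0 against 14 and 21 counts), GATA6 (117 and 124 against 291 and 368) and NR2F1 (83 and 106 against 2028 and 1940). Of 30 extracellular matrix and adhesion genes 17 were tested, 7 (41.2%) higher and 3 (17.6%) lower, with a median of 1.19, and none met the rule. Of 25 germline genes 21 were silent in all 4 libraries, 1 was tested and 0 were called. Markers of 8 genes each gave 1 higher and 1 lower of 4 tested for fibroblasts, 0 of 3 for endothelium, 0 of 2 for melanocytes and Schwann cells and 0 of 1 for skeletal muscle. The fibroblast markers summed to 1771 and 2330 counts in MCF10A and 1206 and 1281 in G12V cells. FAP was called lower, with 1197 and 988 against 25 and 26 counts, and LUM was called higher, with 1 and 0 against 28 and 27. DCN was not called, with 557 and 1324 against 1135 and 1190 counts. THY1 had 0 and 1 counts in MCF10A and 0 in both G12V libraries.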

How the data were processed

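Poly(A) RNA of MCF10A and G12V cells (2 libraries each) and of MCF10A cells given DMSO or Nutlin-3a (3 each) was sequenced. Per the labels, reads were aligned to hg19 with TopHat and assigned to genes with HTSeq, and the authors deposited the raw counts unnormalized. The annotations and the strand setting are not given in the sources used here. The labels call the replicates biological without saying how they were separated, so p-values measure the spread between these libraries.

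Counts were scaled by TMM, filtered by filterByExpr and compared within each table by the quasi-likelihood test of edgeR 4.0.16 in R 4.3.3, with Benjamini-Hochberg adjustment over all genes. A gene was called at an adjusted p under 0.05 with a log2 fold change beyond 0.5 in either direction. CPM use TMM-scaled library sizes. A fold over 0 counts is a lower bound against 3 counts over the group, and other ratios of the switched-on genes have exact 95% conditional intervals. The fits were tested on simulated data, where both missed some changed genes and made some false calls.

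The switched-on genes and the gene lists were chosen with earlier results of these data known, and the families after the genes were known. Every switched-on gene is named, with called neighbours, examples of called list genes and the 3 genes nearest outside each limit. Values of relatives and of neighbours not called were chosen after their counts were seen. The full list of leukocyte markers is not reported here. Genes were matched between tables by symbol, and 28 symbols in each table that had turned into dates were not matched. Transcript lengths come from GENCODE v44 lifted to hg19 and promoters from RefSeq. Alternatives were DESeq2 1.42.0, other size factors, no filter, the replicate number as a block, other count limits and leaving out each library.

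Same-numbered DMSO and Nutlin-3a libraries deviated together from their group means, with correlations of 0.641, 0.649 and 0.676, while all other combinations gave -0.499 to -0.206. Deviations within a group cancel out, so the negative values follow in part from the positive ones and add no separate support. The replicate numbers, which come from the labels, therefore pair the libraries of that experiment.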

Additional observations from a re-analysis of the deposited data

How the results depend on the processing

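The number of switched-on genes was 3 with a limit of 0 counts in MCF10A, 34 with a limit of 10, 34 with at least 20 counts in G12V cells, and 13 to 26 when 1 library was left out, 26 without MCF10A replicate 1 and 24 without G12V replicate 1. It was 8 with at least 100 counts, 10 on scaled counts and 14 with no symbol left out. With 0 counts asked for in each DMSO library 1 gene remained in place of 5, with at most 10 counts 7 did, and without 1 library 5 to 6. Neighbours called higher were 2 with DESeq2, without the filter and with the block, 1 without overlapping neighbours, and 0 to 3 when 1 library was left out, the 0 being without MCF10A replicate 1. Neighbours called lower were 0, but 2 with DESeq2 and 2 with the block. Genes called between MCF10A and G12V cells numbered 1575, and 0 to 2129 when 1 library was left out, the 0 again without MCF10A replicate 1. Genes called after Nutlin-3a numbered 23, against 88 with DESeq2, 99 without the filter and 7 to 11 when 1 library was left out. The log2 fold change of HCLS1 after Nutlin-3a changed sign in 4 of 6 such settings and ranged from -0.149 to 0.444. The cause of these changes was not tested.

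A fit with the replicate block called 4158 genes between MCF10A and G12V cells, and 165 after Nutlin-3a. For MCF10A and G12V cells the labels give only a shared number, and 2 pairs (correlation 0.535) are too few to show a pairing. The block changed no call of a switched-on gene after Nutlin-3a.

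Depth limits the silent side: 3 counts over both MCF10A libraries are 0.0671 CPM and over the 3 DMSO libraries 0.0582 CPM, the upper limit that 0 counts allow.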

Other observations

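A further 23 genes, after the same symbols were left out, were silent in MCF10A cells and had 20 to 49 counts in the lower G12V library. Of these, 20 were found in the table of the Nutlin-3a experiment, where 7 had at most 3 counts in every DMSO library and 8 had over 3 counts in each. NPTX2, a neuronal pentraxin, and STXBP6, a regulator of membrane fusion, had 0 counts in all 6 libraries of that experiment, with 32 and 31 counts for NPTX2 and 20 and 32 for STXBP6 in G12V cells. LUM, the matrix proteoglycan lumican, had 28 and 27 counts in G12V cells and 0 in each DMSO library.

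In contrast POU2F2, a transcription factor of B cells, had 2 and 1 counts in MCF10A, 26 and 20 in G12V cells and 21, 42 and 14 with DMSO. This gene, picked after its values were seen, had raw counts in DMSO libraries that overlap those in G12V libraries although it met the limit for silence in MCF10A. DENND2A had 41, 3 and 25 counts in the DMSO libraries and 52, 2 and 28 in the Nutlin-3a libraries of the same numbers.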
